A study of Mus musculus with 2 samples.

Results

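Interferon regulatory factors are transcription factors that carry a conserved DNA-binding domain of the helix-turn-helix type and read GAAA-containing elements in interferon-inducible genes. The mouse genes Irf1, Irf2, Irf3, Irf4, Irf5, Irf7, Irf8 and Irf9 were described here in Bcl11b-deficient against wild-type CD8+ T cells during infection with Listeria. Members were taken by gene name from both scanner files, control spots left out. The 8 genes held 12 probes, of 41174 gene probes and 27597 gene names in all. Names on the array alone found 7 of the genes, and Irf9 is there under its older name Isgf3g and was matched through its accession.

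The deficient cells came from Bcl11bF/F/dLck-iCre mice, whose floxed Bcl11b alleles are cut by a Cre under the distal Lck promoter, which is active in mature T cells. Deletion was not measured by cell type in these data. The other cells came from wild-type mice. Both groups were infected with Listeria monocytogenes-OVA, a strain carrying ovalbumin, and were taken at day 6 by negative selection, at a purity the labels put above 90%; mouse strain and age are not stated in the labels. There were 2 arrays, each with deficient RNA in red (Cy5) and wild-type RNA in green (Cy3) of 1 biological replicate, so a dye effect and a genotype effect cannot be told apart, and both arrays lie on 1 slide.

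In immune cells the family divides the work. Irf3 and Irf7 are switched on by phosphorylation after sensing of nucleic acids and drive type I interferon genes, and Irf5 acts below Toll-like receptors in inflammatory cytokine induction. Irf9 is the DNA-binding member that acts downstream of the type I interferon receptor. Irf1 is induced by interferon-gamma and activates antigen presentation genes, while Irf2 binds the same elements and often opposes it. Irf4 is induced by T-cell receptor signalling and needed for effector CD8+ T-cell expansion, and Irf8 directs development of monocytes, dendritic cells and B cells and is also induced in activated CD8+ T cells.

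Irf8 and Irf5, the members best known from myeloid and B cells, were higher in deficient cells, and no member was lower by the test. Of the 11 probes of 7 genes that passed the filter on dim probes, 2 probes of 2 genes were called higher (28.6% of the tested member genes) and 0 lower, with 2 probes at an unadjusted p under 0.05. Over all 12619 probes tested, 7.61% were called in either direction, 2.73% higher and 4.87% lower, and over the 9928 genes represented by their brightest tested probe, 7.46% were called, 3.16% higher and 4.3% lower. Calls came from limma with Benjamini-Hochberg adjustment over all probes, at an adjusted p of 0.05. Irf4 was not tested, since neither of its channels cleared the background limit on both arrays. All 12 member probes are single spots, and 0 of them were flagged or saturated. Raw signals are given before background correction, and negative control spots had medians of 968 and 707 in the deficient channel and 326.5 and 406 in the wild-type channel, so a raw excess in deficient cells is in part shared by spots with no target.

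The brighter probe of Irf8 (NM_008320, chromosome 8, 123642401 to 123642460, plus strand, build NCBI36 (mm8)) had mean signals of 5638 and 22059 in deficient cells, against 2790 and 3172 in wild-type cells. Both deficient signals lay above both wild-type signals, and the deficient signals differed from each other far more than the wild-type ones did. Its normalized log2 ratio of deficient over wild type was 1.66 on replicate 1 and 2.42 on replicate 2. The mean was 2.04 ± 0.54 (SD, n = 2), a 4.12-fold difference, with a limma adjusted p of 0.00151. The limma SE was 0.40, which rests mainly on a variance shared by all tested probes and not on the spread of these 2 arrays. Of the 9928 genes, 90 (0.907%) had a higher mean ratio.

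The dimmer Irf8 probe, on the 5′ side of the brighter one (chromosome 8, 123641966 to 123642025), had signals of 1317 and 5143 in deficient cells and 722 and 807 in wild-type cells. The direction of its ratio differed between arrays, at -0.52 on replicate 1 and 2.45 on replicate 2, although the raw deficient signal was the higher one on both. The mean was 0.96 ± 2.10 (SD, n = 2), with a limma adjusted p of 0.223. Of 12 alternatives it was called in 2, with limma adjusted p up to 0.581 in the others. It passed with each array centred on its tested probes' median (mean 1.12, limma adjusted p = 0.0493), and the mean over both Irf8 probes was 1.5 (0.57 and 2.43) and passed (limma adjusted p = 0.00633). Replicate 2 gave nearly the same ratio with both probes, and replicate 1 did not.

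Irf5 (NM_012057, chromosome 6, 29486911 to 29486970) had mean signals of 1954.5 and 4638 in deficient cells, against 771 and 857.5 in wild-type cells. The groups did not overlap in raw signal. This was also so for Irf7, both Irf9 probes and the dimmer Irf1, Irf3 and Irf8 probes, none of them called. It held too for untested Irf4 and for the medians of the negative control spots, and the share over all probes was not counted. The deficient signal of Irf5 exceeded the wild-type one on both arrays, and as with Irf8 it was larger on replicate 2 than on replicate 1. Its log2 ratio was 1.01 and 2.16, a mean of 1.59 ± 0.81 (SD, n = 2), with a limma SE of 0.41 and adjusted p of 0.0139. Of the 9928 genes, 199 (2%) had a higher mean ratio.

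Both calls depended on the processing. The call of Irf8 ended, at mean log2 ratios of 2.04 to 2.15, with the scanner program's own ratios (adjusted p = 0.174), the deposited value table (0.174), the program's fitted background surface (0.47), no filter on dim probes (0.277) and separate channels (0.152), in each case by limma. An intensity trend in the spread gave an adjusted p of 0.0762. With median centring in place of loess the mean was 1.17 (0.16 and 2.17, adjusted p = 0.2). Irf5 lost its call in the same settings, with adjusted p from 0.0684 to 0.47 by limma, and median centring gave 1.17 (0.33 and 2.01, adjusted p = 0.198).

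**Figure D1:**
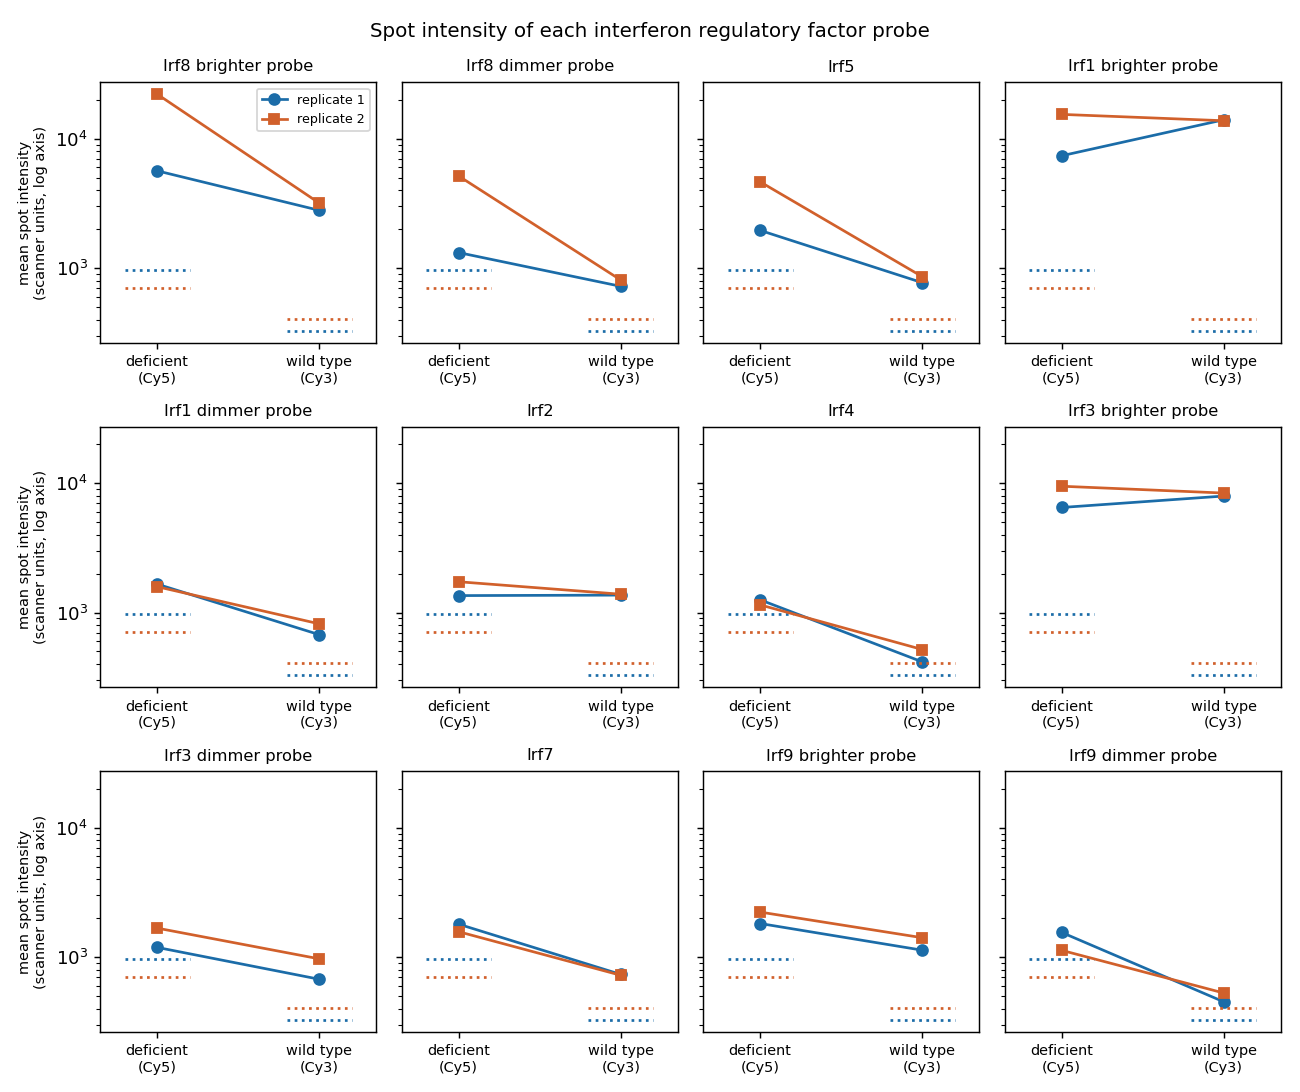
Mean spot intensity in scanner units (log axis) of each member probe, deficient (Cy5) left of wild type (Cy3), with a line joining the channels of 1 array (circle replicate 1, square replicate 2) and dotted lines at the median of the negative control spots of that channel and array. Intensities are compared within a probe; the brighter Irf8 probe reads 5638 and 22059 in deficient cells, against 2790 and 3172 in wild-type cells, and Irf4 lies closest to the dotted lines along with the dimmer Irf9 probe.

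The promoters of Irf8 and Irf5, the called members, and of Irf1 and Irf2, whose windows also hold a match, are shown with the motifs found in them. Each line is RefSeq sequence of build GRCm38.p6 from 250 bases before to 50 after the annotated start, 5′ to 3′ on the gene's strand, at chr8:120736108-120736407 for Irf8, chr6:29526375-29526674 for Irf5, chr11:53769764-53770063 for Irf1 and chr8:46739495-46739794 for Irf2. Capitals mark matches to a motif.
Irf8: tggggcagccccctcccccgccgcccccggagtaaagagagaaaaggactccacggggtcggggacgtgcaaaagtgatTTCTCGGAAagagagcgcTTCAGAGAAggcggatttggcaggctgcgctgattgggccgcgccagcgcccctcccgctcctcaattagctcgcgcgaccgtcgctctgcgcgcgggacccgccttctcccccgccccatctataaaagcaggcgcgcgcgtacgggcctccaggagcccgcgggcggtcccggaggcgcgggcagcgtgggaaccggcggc
Irf5: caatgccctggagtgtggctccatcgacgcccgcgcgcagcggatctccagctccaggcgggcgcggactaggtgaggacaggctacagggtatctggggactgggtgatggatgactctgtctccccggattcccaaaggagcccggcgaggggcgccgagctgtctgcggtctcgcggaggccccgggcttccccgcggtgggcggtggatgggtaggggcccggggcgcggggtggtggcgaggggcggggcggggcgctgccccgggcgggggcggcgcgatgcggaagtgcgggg
Irf1: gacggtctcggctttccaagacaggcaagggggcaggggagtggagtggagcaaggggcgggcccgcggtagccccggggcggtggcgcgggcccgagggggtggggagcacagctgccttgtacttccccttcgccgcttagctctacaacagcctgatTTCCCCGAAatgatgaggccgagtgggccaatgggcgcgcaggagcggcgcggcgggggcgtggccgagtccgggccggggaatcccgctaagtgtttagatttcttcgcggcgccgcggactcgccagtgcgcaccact
Irf2: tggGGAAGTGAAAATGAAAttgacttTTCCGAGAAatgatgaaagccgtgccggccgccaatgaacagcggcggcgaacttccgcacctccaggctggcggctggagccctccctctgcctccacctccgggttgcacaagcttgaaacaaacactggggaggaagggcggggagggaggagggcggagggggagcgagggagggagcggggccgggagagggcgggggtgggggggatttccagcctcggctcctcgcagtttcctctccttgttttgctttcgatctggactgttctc

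The motifs searched on both strands were the interferon-stimulated response element core (GAAA, 2 bases of any kind, then GAAA), the gamma-activated site (TTCNNNGAA), the PU.1-IRF composite element (GGAA, 2 bases of any kind, then GAAA) and the AP-1 site (TGANTCA). Irf8 holds a gamma-activated site at -171 to -163 from the start and another at -153 to -145, and Irf1 holds one at -90 to -82. In the Irf2 promoter, the composite element at -247 to -238 overlaps a response element core at -241 to -232, and a gamma-activated site lies at -224 to -216. The windows of Irf3, Irf4, Irf5, Irf7 and Irf9 hold none of these letters. Among 32851 windows of this length, 3.44% hold the response element core, 8.3% the gamma-activated site, 2.72% the composite element and 7.81% the AP-1 site. A match describes letters and not binding.

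Irf1 did not pass the test with either probe. Its brighter probe (NM_008390, chromosome 11, 53620636 to 53620695) read 7372 and 15398 in deficient cells and 13989 and 13753.5 in wild-type cells, so that the groups overlapped. The log2 ratio was -0.16 and -0.28, a mean of -0.22 ± 0.08 (limma adjusted p = 0.756), and median centring gave -1.80 and -0.55. The dimmer Irf1 probe (53617367 to 53617512) read 1658.5 and 1584 in deficient cells and 674 and 817 in wild-type cells. Its ratios had the opposite sign, 0.55 and 0.28, a mean of 0.41 ± 0.19 (limma adjusted p = 0.552), and the direction of Irf1 thus differed between its probes.

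Irf2 (NM_008391, chromosome 8, 48345949 to 48346008) read 1352 and 1730 in deficient cells, where it was well above background on 1 of 2 arrays, and 1363 and 1386 in wild-type cells. The groups overlapped in raw signal, and both normalized ratios were below 0, at -0.89 and -0.43. The mean was -0.66 ± 0.33 (SD, n = 2), with a limma adjusted p of 0.329, and the program's own ratios gave -1.21.

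Irf4 (NM_013674, chromosome 13, 30774055 to 30774114), the member tied to T-cell receptor signal strength, read 1254 and 1146.5 in deficient cells and 416 and 518 in wild-type cells. It was well above background on 1 of 2 arrays in deficient cells and on 0 in wild-type cells, so its direction was not determined. Its normalized log2 ratio was 0.13 and 0.45 on the 2 arrays.

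Irf3, expressed in most cell types, did not pass the test. Its brighter probe (NM_016849, chromosome 7, 44870345 to 44870404) read 6483 and 9465 in deficient cells and 7947 and 8382.5 in wild-type cells. The ratios were 0.43 and -0.30, a mean of 0.06 ± 0.52 (limma adjusted p = 0.94). The dimmer Irf3 probe (AK050570), well above background on 1 of 2 deficient arrays, gave -0.96 and 0.09 (adjusted p = 0.539 by limma).

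Irf7, which amplifies interferon production, read 1795 and 1570 in deficient cells and 734 and 723 in wild-type cells (NM_016850, chromosome 7, 141116085 to 141116435, minus strand). The groups did not overlap in raw signal, but the ratios of 0.76 and 0.49 gave a mean of 0.62 ± 0.19 and a limma adjusted p of 0.359. Irf9 (NM_008394, chromosome 14, 54563490 to 54563549) read 1816 and 2226 in deficient cells and 1130 and 1410 in wild-type cells with its brighter probe. The log2 ratio was 0.36 and 0.03, a mean of 0.20 ± 0.23 (limma adjusted p = 0.786). Its dimmer probe (54560214 to 54560424) stayed dim in wild-type cells on both arrays and entered the test through the deficient channel alone. Its ratios of 0.67 and 0.39 did not pass (limma adjusted p = 0.444).

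**Figure D2:**
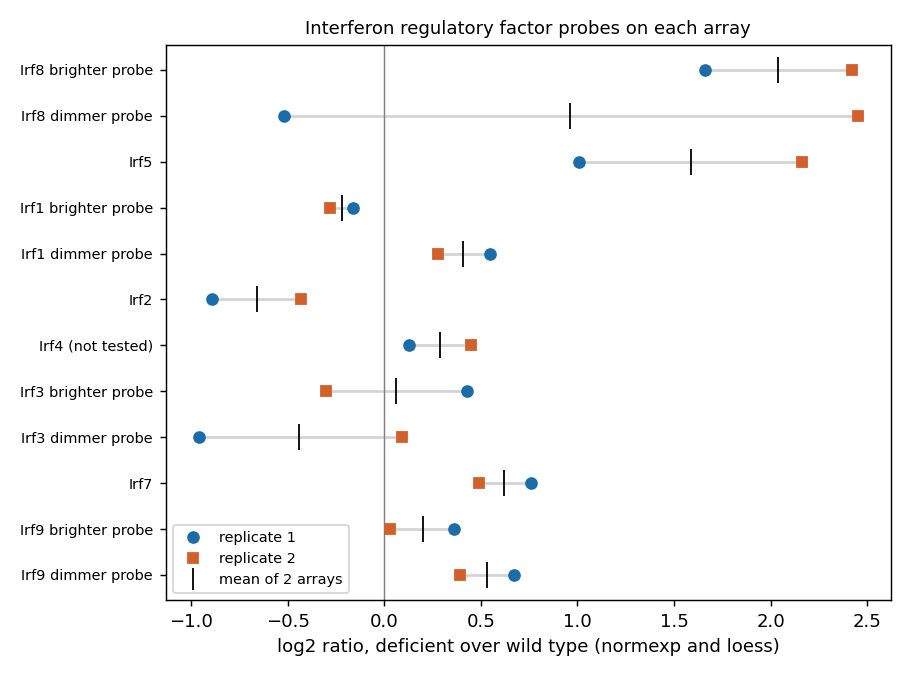
Log2 ratio of deficient over wild type for each of the 12 member probes after normexp and loess, with a point per array and a black bar at the mean of 2 arrays. The brighter Irf8 probe (mean 2.04) and Irf5 (mean 1.59) are the called probes, the dimmer Irf8 probe spans -0.52 to 2.45, and Irf4 was not tested.

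The contrast of Irf5 and Irf8 with Irf1 and Irf2 pointed the same way on both arrays. The median of the brighter probes was 1.81 for Irf5 and Irf8 (1.34 and 2.29 per array), -0.44 for Irf1 and Irf2 (-0.53 and -0.36) and 0.20 for the broadly expressed Irf3, Irf7 and Irf9 (0.43 and 0.03). Over all 9928 genes it was -0.12 (-0.22 and -0.01). The median of Irf5 and Irf8 exceeded that of Irf1 and Irf2 by 1.87 on replicate 1 and 2.65 on replicate 2. Over the settings run, the gap was 1.14 to 2.41 on replicate 1 and 2.38 to 3 on replicate 2. The gap of 1.14 came with the mean over a gene's probes, which brings in the dimmer probes of Irf8 and Irf1. Irf1 and Irf2 were grouped with Irf4 as lymphoid members, a label that was not tested here. Irf4 could not enter their median, and each class rests on 2 or 3 genes, so no test was made of the gap.

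**Figure D3:**
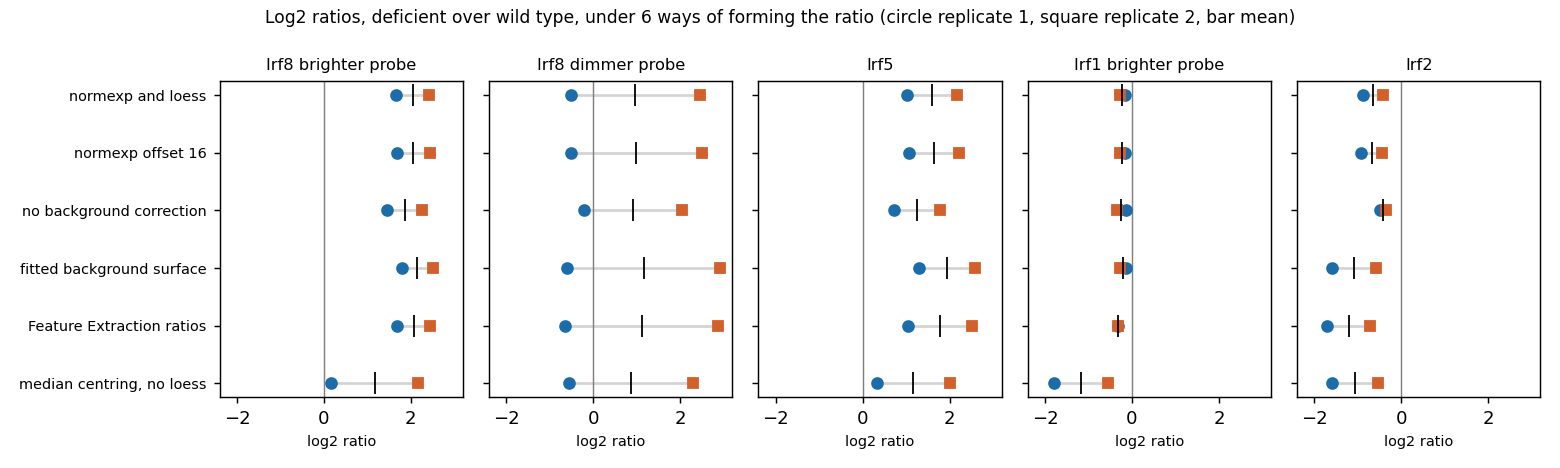
Log2 ratios of deficient over wild type for 5 member probes under 6 ways of forming the ratio (circle replicate 1, square replicate 2, bar mean). Both arrays stay above 0 for the brighter Irf8 probe and Irf5, the arrays of the dimmer Irf8 probe differ in sign in each panel row, and median centring moves replicate 1 of Irf8 (brighter probe) to 0.16.

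Macrophage markers, some markers of B cells, dendritic cells and neutrophils, and the plasma cell marker Jchain were higher beside Irf8 and Irf5. All 11 of the 11 measured macrophage markers of 13 listed were called higher in deficient cells, with a median log2 ratio of 2.36. Their summed normalized level was 78158 to 88228 in deficient cells, against 9657 to 19975 in wild-type cells. C1qc, a complement chain, had a ratio of 3.49, Adgre1, the F4/80 antigen, of 3.35, Csf1r, the macrophage growth factor receptor, of 3.25 and Spic, a red pulp macrophage factor, of 3.01, while Itgam was dim in both groups. Of 9 B-cell markers, 5 were measured and 3 called higher (median 1.59), with summed levels of 77577 to 103715 in deficient cells and 23251 to 34690 in wild-type cells. Ms4a1, which encodes CD20, had a ratio of 1.94, Cd74 of 1.69 and Cd79b of 1.59, and Ebf1 was dim in both groups. Of 8 dendritic cell markers, 4 were measured and 2 called higher (median 0.81, sums of 7382 to 13607 in deficient cells and 5653 to 5678 in wild-type cells). Itgax and Cd83 each had a ratio of 2.00, Ccr7 had -0.77 and -0.17 and Xcr1 -1.76 and 0.99 without passing, and Siglech was dim in both groups. Of 7 neutrophil markers, 5 were measured and 3 called higher (median 1.70), with sums of 51232 to 85608 in deficient cells and 9702 to 11509 in wild-type cells. The alarmins S100a9 and S100a8 had ratios of 2.79 and 2.46. Camp, well above background on 1 of 2 wild-type arrays, had 1.70, and Mmp8 was dim in both groups. Of 5 plasma cell markers, Jchain alone was measured and was called higher at 2.00. Sdc1, Prdm1 and Tnfrsf17 were dim in both groups, and Xbp1 cleared the background limit on 1 of 2 deficient arrays alone. With median centring in place of loess, 8 of the macrophage markers (median 1.81), 2 of the neutrophil markers (median 1.43) and 0 of the B-cell (median 0.68), dendritic cell and plasma cell markers were called higher, and with the scanner program's own ratios 0 of any list were called.

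T-cell markers moved the other way. Of 13 measured, 6 were called lower and 0 higher (median -1.17), and their summed level was 73432 to 106728 in deficient cells, against 191172 to 222579 in wild-type cells. Median centring called 10 of them lower (median -2.10), and the program's own ratios 0 (median -1.40). Tcra had a ratio of -2.84, Cd6 of -2.56, Cd3e of -2.34 and Cd3g of -1.82. The fall was not uniform: among the 7 not called, Zap70 had 0.08 and -0.31 and Cd2 had 0.24 and -0.42 on the 2 arrays. Of these, Tcra and Cd3e were each well above background on 1 of 2 deficient arrays. Fewer T cells and less T-cell RNA per cell cannot be told apart in bulk RNA, and the part of these cells in the ratios of Irf8 and Irf5 was not tested. Bcl11b, the targeted gene, had -0.69 and -2.95 with 1 probe. Another Bcl11b probe, dim in deficient cells on both arrays, had -1.09 and -2.03 (limma adjusted p = 0.0144). By the mean of the arrays it was at least 2.81-fold lower there.

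The genes whose ratios lay closest to Irf8 on both arrays, by Euclidean distance over 2 arrays, were Ms4a7 (0.0732), Fes (0.0908) and Adam8 (0.131), with 67 genes within 0.5. Those closest to Irf5 were Skap2 (0.078), Il10ra (0.133) and Unc93b1 (0.146), with 93 genes within 0.5. With 2 points per gene, such closeness is a description.

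Partners that bind DNA with Irf4 and Irf8 were measured for 8 of 10 genes, of which 1 was called higher and 1 lower (median -0.02). Batf3, an AP-1 factor of dendritic cells and activated T cells, had ratios of 1.05 and 2.38, a mean of 1.72 ± 0.94 (limma adjusted p = 0.00889). Tcf3, the E protein E2A, had -2.30 and -0.47, a mean of -1.38 ± 1.29 (limma adjusted p = 0.041), well above background on 1 of 2 deficient arrays. Batf gave -0.60 ± 0.07 without passing (limma adjusted p = 0.38). Spib, a relative of PU.1, had -0.20 and 1.33 (limma adjusted p = 0.436). Spi1, which encodes PU.1, the partner of Irf8 in myeloid cells, was not tested. It was well above background on 0 arrays in either group, with ratios of -0.64 and 0.03.

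Among 16 sensors, adaptors and kinases upstream of Irf3, Irf5 and Irf7, 9 were measured, 0 called higher and 2 lower (median -0.25). Ikbke, a kinase of Irf3 and Irf7, stayed dim in deficient cells on both arrays and was at least 2.38-fold lower there (limma adjusted p = 0.0197), having entered the test through the wild-type channel alone. Tbk1, its close relative, had -3.09 and -0.11 (limma adjusted p = 0.034), well above background on 1 of 2 deficient arrays. Toll-like receptors Tlr3, Tlr4 and Tlr7 were not tested. Of the 11 interferon receptors, kinases and STATs, 1 was called higher and 2 lower (median -0.18). Ifngr1, the ligand-binding chain of the interferon-gamma receptor, had 1.24 and 1.34 (mean 1.29 ± 0.07, limma adjusted p = 0.0398). Socs3, an inhibitor of JAK signalling, had -1.47 and -1.40 (mean -1.44 ± 0.05, limma adjusted p = 0.0221). Ifnar1, well above background on 1 of 2 deficient arrays, had -2.12 and -0.59 (limma adjusted p = 0.0409).

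Targets of the family and cofactors of Irf2 were counted against the 7.46% called over all genes. Of 22 type I interferon stimulated genes, 15 were measured and 0 were called in either direction by limma, with 3 at an unadjusted p under 0.05 and a median of 0.08 (from -0.79 for Zbp1 to 1.16 for Ifitm3). Of 14 antigen presentation and other Irf1 targets, 13 were measured and 1 was called, higher: Ciita, the master regulator of MHC class II genes, at 2.12 and 3.04 (mean 2.58 ± 0.65), with a list median of 0.26, which median centring turned to -0.34. Of 11 guanylate binding proteins and IRG GTPases, which are interferon-gamma effectors against intracellular microbes, 10 were measured, 1 called higher and 1 lower (median -0.42). Gbp5 had a ratio of 1.57 ± 0.64 (limma adjusted p = 0.0137) and Igtp of -1.26 ± 0.27 (limma adjusted p = 0.0451). Of the 3 Irf2 binding proteins, 2 were measured and 0 called by limma (median -0.63), with 1 at an unadjusted p under 0.05.

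**Figure D4:**
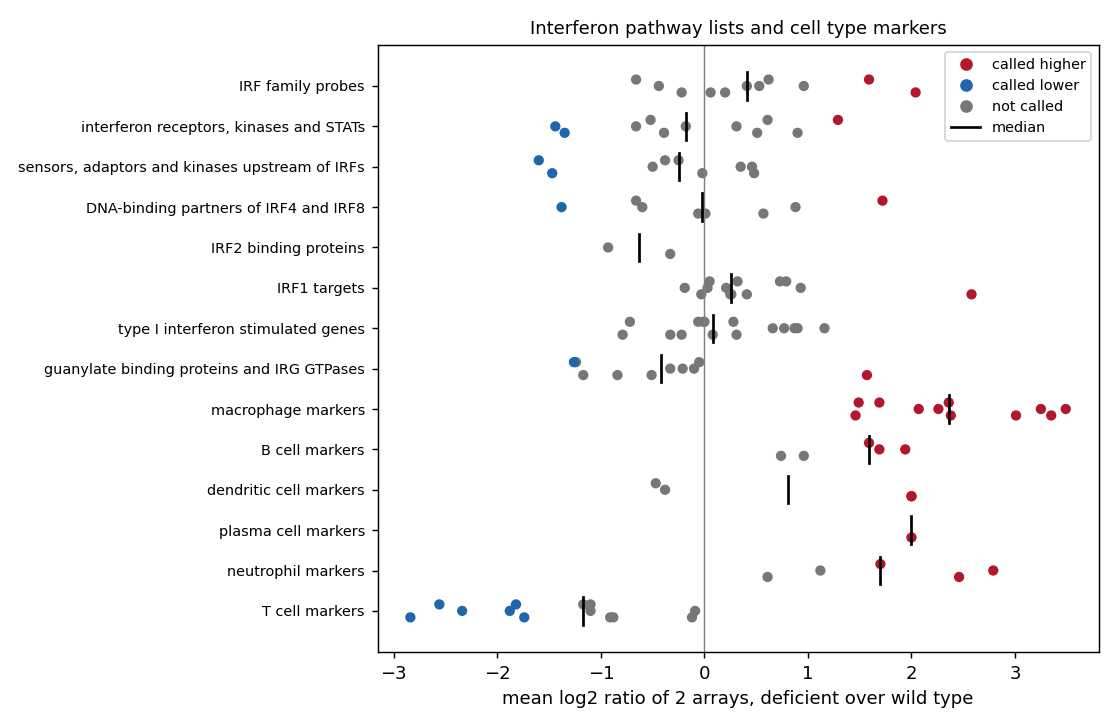
Mean log2 ratio of 2 arrays, deficient over wild type, for member probes and for measured genes of each list, with the list median as a bar (red called higher, blue called lower, grey not called). The measured macrophage markers lie above 1 and the T-cell markers below 0, and each interferon list other than the IRF2 binding proteins has genes on both sides of 0.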

How the data were processed

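Both genotypes' RNA was measured on 2-colour Agilent arrays. The authors' scanner files give, per the file headers, the mean intensity of each spot, its local background intensity and its red over green ratio on the log10 scale. The program was Agilent Feature Extraction 9.5.3.1, per the submitters' processing notes. The same log10 ratio, to within 0.005, fills the deposited value table. From the mean intensity, background was corrected with normexp (offset 50) followed by loess inside each array (control spots at weight 0). Probes with 1 channel well above background on both arrays were kept, 12619 in all, and duplicate spots were averaged. Testing of log2 ratios against 0 used limma 3.58.1 under R 4.3.3 (two-sided, Benjamini-Hochberg over all probes, threshold 0.05). Each probe's variance, with 1 residual degree of freedom, was combined by limma with a prior shared by all tested probes, with 30.6 degrees of freedom. The SE and p thus rest mainly on that prior. The smallest mean called was 1.23, and the number of arrays limits the precision. Between 26.0% and 32.4% of gene spots cleared the background limit, depending on channel. A called probe not well above background in a group on both arrays got a bound (from array means), open to dye bias. Bounds and summed list levels used single channels after a further quantile step between arrays. The sums are linear, so bright genes weigh most, and they too are open to dye bias. Names came from accessions (24375 probes), symbols or synonyms (8727) of a RefSeq table of GRCm38.p6, or the array (8072). On simulated data (20 draws, 200 changed probes), the procedure recovered 14.3% of changed probes at a log2 change of 1, 90.4% at 2 and 99.8% at 3. Of its calls there, 8.69% were false, above the threshold of 0.05. The simulated ratios were independent, took their variance from the fit's own prior, and held no dye effect or shift of a whole array. These shares therefore check the procedure under its own model and do not give its power on these arrays. Genes named are the members, from each list at most 4 called members ranked by adjusted p, 4 partners (Spi1, Spib, Batf, Batf3) and the 3 nearest to each called member; others were chosen after their values were seen. Members and lists were chosen with earlier results of these data known. Whether replicates came from separate or pooled mice is not given in the sources used here.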

Additional observations from a re-analysis of the deposited data

How the results depend on the processing

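Over 13 alternatives, the brighter Irf8 probe ranged from 1.17 to 2.20 and Irf5 from 1.17 to 1.94, each called in 6 of the 13. Without one array, Irf8 was 1.66 to 2.42 and Irf5 1.01 to 2.16, with no test. Over all probes, 345 were called higher and 615 lower (64.1% of calls lower). No call in either direction, 0 higher and 0 lower, came from the program's own ratios (2511 at an unadjusted p under 0.05), the value table (2510), the fitted background surface (869), no filter on dim probes (7409), an intensity trend (1449) or separate channels (2295), all by limma. Median centring called 71 higher and 441 lower (86.1% lower), centring each array on its tested probes' median 607 and 625 (50.7%), no background correction 279 and 167 (37.4%), and both channels well above background 479 and 172 (26.4%). The median of all tested probes was -0.17, against -0.40 with median centring. Signs turned for Irf9 (-0.31) and Irf3 (-0.87) with median centring, and for Irf3 (-0.19) and Irf1 (0.0947) with the mean over a gene's probes. The cause was not tested. Testing each array's ratio against 0 already pairs both RNAs of a replicate, so no further paired analysis was made. It leaves 1 group of 2 arrays. Dim spots limit what could be tested, since 12619 of 41174 probes passed the filter.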
